A study of Homo sapiens with 18 samples.

Results

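A set of 10 human genes of selenium biology was followed in glioblastoma cells treated with Erastin: 9 that encode selenoproteins (SELENOP, SELENOW, SELENOK, SELENOS, SELENOT, SELENOH, SELENON, SELENOM and SEPHS2) and SECISBP2, which encodes a protein needed to make them. They were chosen by name, as 10 of the 58302 genes in the count table, and all 10 passed the filter on low counts. RNA-seq had been performed in U87MG, an established human glioblastoma cell line, with 2 control libraries from cells under normal growth and 2 libraries from cells given Erastin (10 μM, 72 h). Erastin blocks system Xc-, the transporter that brings cystine into the cell, and thereby leads to ferroptosis, an iron-dependent death by lipid peroxidation. The cells carried no other labelled agent or allele, a single line was used, and whether the controls received the vehicle is not given in the sources used here. The labels do not say that replicates came from separate cultures, so the p-values measure only the spread between these libraries, which may be technical. The 14 other samples of the series, which concern chromatin, were not analysed here.

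Selenoproteins contain selenocysteine, an amino acid like cysteine with selenium in place of sulfur. It is coded by UGA (TGA in the gene), which ordinarily stops translation; a hairpin in the 3′ untranslated region, the SECIS element, recruits SECISBP2 together with an elongation factor and the selenocysteine tRNA, so that UGA is read through. SEPHS2 makes selenophosphate, the selenium donor for this amino acid, and is itself a selenoprotein. GPX4, the peroxidase that removes lipid peroxides and whose loss starts ferroptosis, is a selenoprotein too, although it is not among the 10 genes.

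The codons that define the 9 selenoproteins are printed here because they carry the feature the genes share. Each line gives 12 bases before and after the TGA, read 5′ to 3′ on the coding strand of the MANE Select transcript (GENCODE release 44, GRCh38). The TGA is in capitals.
SELENOP, the first TGA: cttcaagccagcTGAtacctgtgcata
SELENOW: tattgtggcgctTGAggctacaagtcc
SELENOT: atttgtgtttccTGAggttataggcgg
SELENOH: cattgcactagcTGAcgcgtctatggg
SELENOM: acctgcgggggaTGAcagctgaaccgc
SELENOK: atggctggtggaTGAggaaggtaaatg
SELENOS: tcatctggcggaTGAggctaagaatct
SELENON, the first TGA: ccctggctcaatTGAtcctcctgcctc
SELENON, the second TGA: gaccagtcctgcTGAggttcagggcgg
SEPHS2: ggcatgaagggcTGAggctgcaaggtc

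SELENOP stood apart by the number of these codons. Its 381 codons held 10 TGA codons, between codon 59 and codon 378, whereas SELENON held 2 and each of the 7 others 1. In SELENOW, SELENOT, SELENOH and SELENOM the TGA followed a cysteine codon by 3 codons, the arrangement of a thioredoxin-like redox site. In SELENOK and SELENOS it lay close to the end of the protein, at codon 92 of 94 and at codon 188 of 189. The earlier TGA of SELENON was part of 1 of its 4 annotated coding transcripts, and the later TGA was part of all 4.

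**Figure D1:**
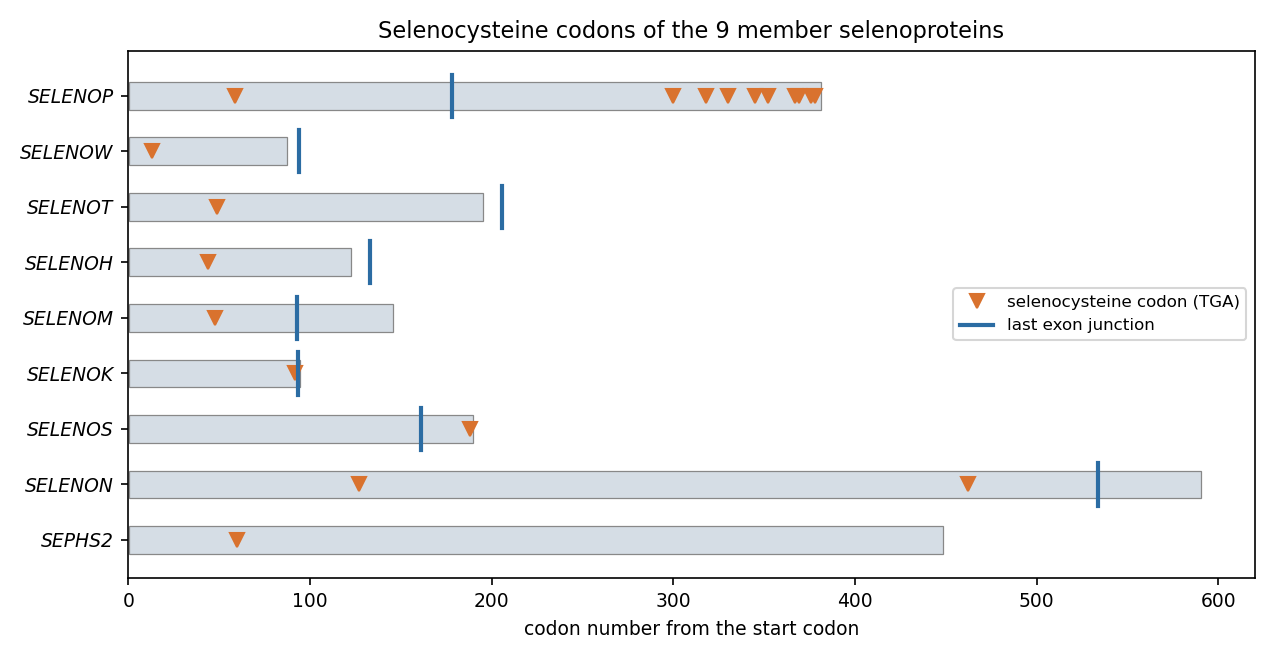
Map of the 9 selenoproteins to scale in codons from the start codon, with orange triangles for TGA codons read as selenocysteine and a blue line for the last exon junction of the transcript, which in SELENOW, SELENOT and SELENOH lies behind the stop codon. SELENOP carries 10 triangles, SELENON 2 and the others 1, and SEPHS2, a gene of a single exon, has no junction.

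Depth was similar in all libraries, at 29412656 to 31513519 counts, so that 3 counts, the limit a count of 0 allows, corresponded to 0.0952 to 0.102 CPM, the usual unit of counts relative to the library total; this covers counting error only. Levels below are CPM on TMM-scaled library sizes, with the mean ± SD of 2 libraries, and differences are log2 fold changes of Erastin minus control by edgeR's quasi-likelihood test with Benjamini-Hochberg adjustment over 16751 genes. With 2 libraries against 2, an exact permutation test could not give a p below 0.333. VIM and CD44, markers of mesenchymal glioma cells, were abundant at 1055 to 2547 CPM in every library, and both fell with Erastin (VIM -0.60, adjusted p = 1.27e-05; CD44 -0.36, adjusted p = 6.44e-04). Of the astrocyte and glioma stem cell markers, GFAP (1.32 to 2.58 CPM) and OLIG2 (1.88 to 2.88 CPM) were low. S100B and SOX2 were near 0 (at most 6 counts). GFAP (0.79, adjusted p = 0.0696) and OLIG2 (-0.40, adjusted p = 0.305) did not pass. NES was higher in control and fell from 36.5 ± 7.41 to 2.98 ± 0.749 CPM (-3.62, adjusted p = 3.97e-08). Of 8 markers of other cell types 1 (APOA1) was at 0 in all libraries, PTPRC had at most 1 count, and their summed level was 5.53 and 7.34 CPM in control and 2.37 and 1.56 CPM in Erastin. PECAM1 was the largest of them, at 4.51 and 6.05 CPM in control and 1.04 and 1.05 CPM in Erastin. It fell with Erastin (-2.34, adjusted p = 4.81e-05). The part of other cell types in the results was not tested. In bulk RNA, fewer cells that express a gene and less RNA per cell cannot be told apart.

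Of the 10 genes, 8 changed, 5 upward (SECISBP2, SEPHS2, SELENOH, SELENOM and SELENOT) and 3 downward (SELENON, SELENOW and SELENOK), all by less than 1 on the log2 scale. SELENOS and SELENOP did not pass the test. Over all tested genes an adjusted p under 0.05 was reached upward by 23.2% and downward by 23.7%, so changes of this kind were common in these libraries. No member passed the thresholds of the study (a size of 1 or more on the log2 scale and an adjusted p under 0.05) by edgeR or by DESeq2. Of all tested genes, 15.6% passed these thresholds by edgeR. An unadjusted edgeR p under 0.05 was reached by 8 members, beside 8901 of all 16751 tested genes. Both Erastin libraries lay above both controls in 6 members and below them in 3, against 36.7% and 36.9% of all tested genes. The median change of the members was 0.17 and their median absolute change 0.38, beside -0.0026 and 0.43 over all tested genes. The summed level of the 10 genes was 706.9 and 694.0 CPM in control and 748.0 and 742.2 CPM in Erastin.

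**Figure D2:**
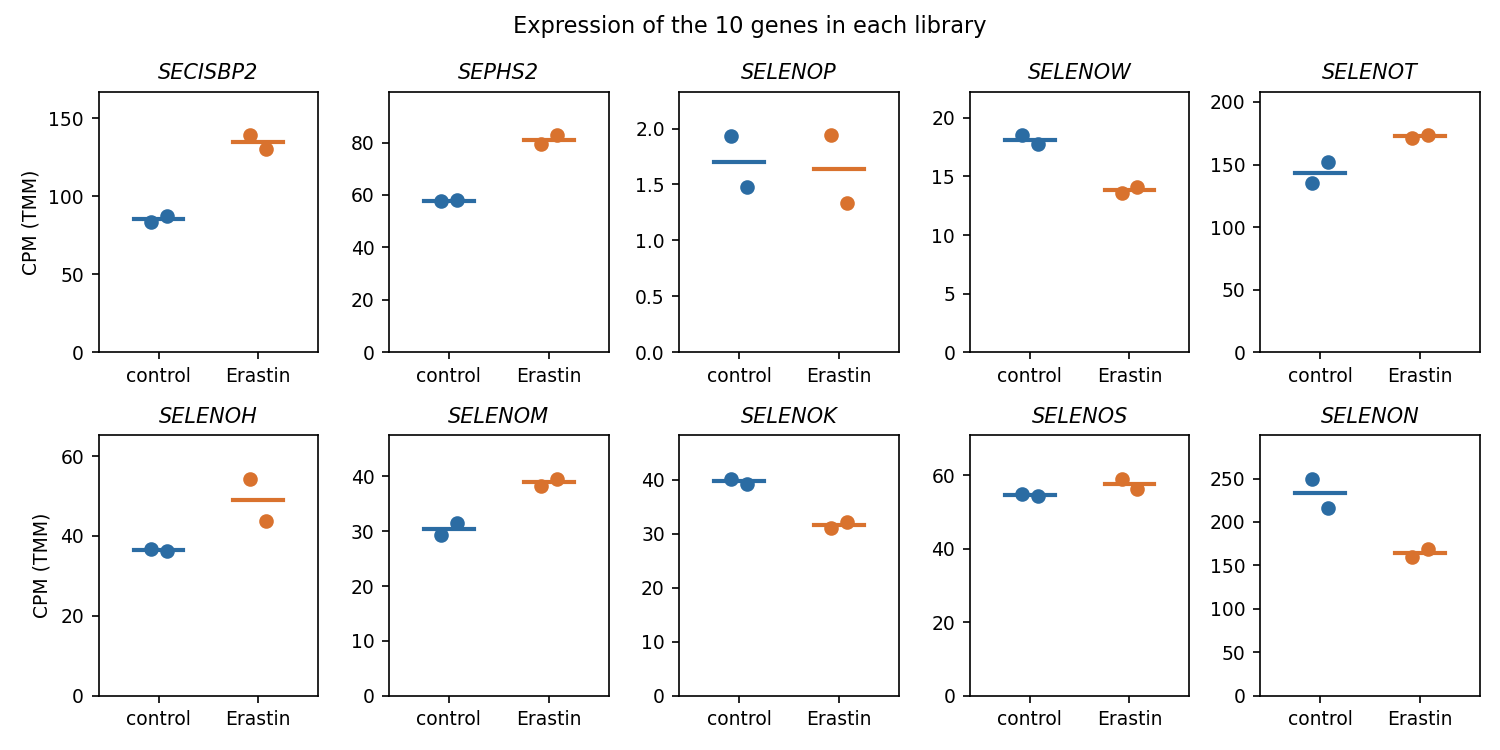
Level of each of the 10 genes in CPM on TMM-scaled library sizes, each panel with its own linear axis from 0; points are libraries (blue control, orange Erastin, 2 each) and bars are group means. SECISBP2, SEPHS2, SELENOT, SELENOH, SELENOM and SELENOS lie higher in both Erastin libraries, SELENOW, SELENOK and SELENON lie lower, and the groups of SELENOP overlap.

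Both machinery genes rose. SECISBP2 (chr9:89318506-89359662, plus strand, GRCh38), whose product binds the SECIS element, stood at 83.2 and 87.3 CPM in control and 139 and 131 CPM in Erastin. The groups were far apart compared with the spread within them. The difference was 0.66 (SE 0.0710, 95% interval 0.51 to 0.82, adjusted p = 1.30e-05), a rise of 58.1%. SEPHS2 (chr16:30443631-30446181, minus strand), the selenophosphate synthetase, stood at 57.8 and 58.0 CPM in control and 79.3 and 82.7 CPM in Erastin. Its control libraries were nearly equal, and both Erastin libraries were higher. The difference was 0.49 (SE 0.0736, 95% interval 0.32 to 0.65, adjusted p = 1.99e-04), a rise of 40.0%. Its TGA lies at chr16:30445548-30445550, in the coding part of the only exon.

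Each of these genes has a paralog without a selenocysteine codon, which gives a comparison within the same library. SEPHS1, which resembles SEPHS2 but does not make selenophosphate, fell from 59.8 ± 2.30 to 40.7 ± 4.51 CPM, a difference of -0.56 (SE 0.0946, adjusted p = 4.73e-04). The ratio of SEPHS2 to SEPHS1 counts was 0.94 and 0.996 in control, and with Erastin it was 2.11 and 1.89. Per length of the MANE Select transcript, SEPHS2 was already higher in control, at 25.8 against 18.3 CPM per kilobase for SEPHS1, and stood at 36.1 against 12.5 in Erastin. SECISBP2L, a relative of SECISBP2 with a SECIS-binding domain, rose from 107 ± 4.67 to 153 ± 2.02 CPM, a difference of 0.51 (SE 0.0685, adjusted p = 7.67e-05). The ratio of SECISBP2 to SECISBP2L counts was 0.8 and 0.79 in control and 0.902 and 0.862 in Erastin. SECISBP2L had more counts but has the longer transcript: per MANE length SECISBP2 was higher, at 24.5 against 15.2 CPM per kilobase in control and 38.7 against 21.6 in Erastin, whereas per merged exon length SECISBP2L was higher, at 12.3 against 8.69 and 17.6 against 13.7. The count ratios are within a library, so they do not depend on the scaling between libraries, but their size depends on gene length.

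**Figure D3:**
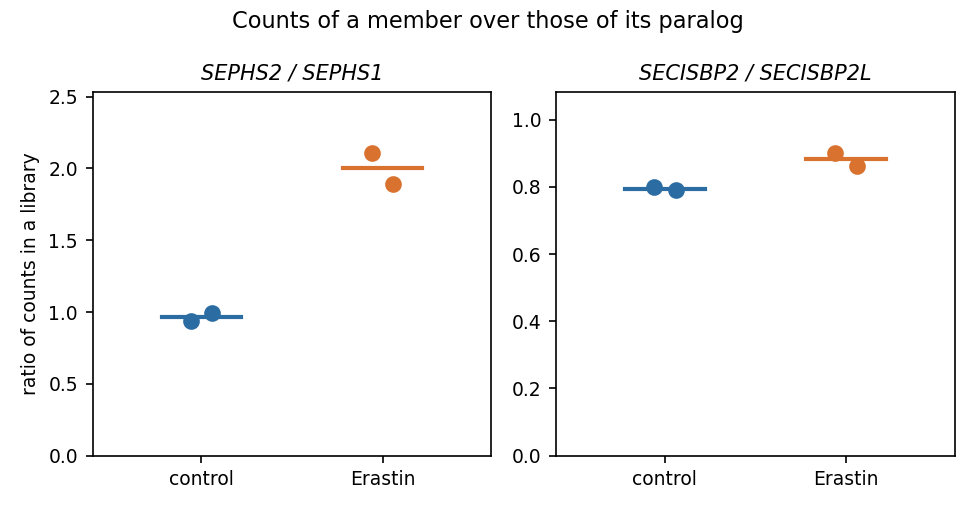
Ratio of the counts of SEPHS2 to SEPHS1 and of SECISBP2 to SECISBP2L within each library, on linear axes from 0; points are libraries (blue control, orange Erastin, 2 each) and bars are group means. The first ratio goes from 0.94 and 0.996 to 2.11 and 1.89, the second from 0.8 and 0.79 to 0.902 and 0.862.

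Of the 12 other genes of the selenocysteine pathway, 11 were tested and none passed the thresholds of the study by edgeR or DESeq2. An unadjusted edgeR p under 0.05 was reached by 4 of the 11, beside 8901 of all 16751 tested genes. By adjusted p, 2 rose, PSTK and SECISBP2L, and 1 fell, SEPHS1, beside 23.2% of all tested genes upward and 23.7% downward. PSTK, the kinase that phosphorylates the serine on the selenocysteine tRNA, went from 4.91 and 4.64 CPM to 9.36 and 9.07 CPM, a difference of 0.95 (SE 0.182, adjusted p = 0.00109). SCLY, the lyase that recovers selenium from selenocysteine, stood at 3.97 ± 0.437 and 2.69 ± 0.0678 CPM and did not pass (log2 fold change -0.56, adjusted p = 0.0959). The median change of the 11 genes was -0.07. The receptor gene LRP2 had 0 counts in all 4 libraries.

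The redox genes with a cysteine codon ahead of the TGA were split. SELENOH (chr11:57741250-57743554, plus strand, TGA at chr11:57741816-57741818), which encodes a nuclear selenoprotein, stood at 36.6 and 36.2 CPM in control and 54.3 and 43.9 CPM in Erastin. Both Erastin libraries were higher, but they differed from each other by more than the controls did. The difference was 0.43 (SE 0.108, 95% interval 0.19 to 0.67, adjusted p = 0.00627). Without Erastin replicate 1 it was 0.27 with an adjusted p of 0.115. SELENOM (chr22:31104772-31120069, minus strand, TGA at chr22:31105951-31105953), a protein of the endoplasmic reticulum (ER) lumen, stood at 29.3 and 31.5 CPM in control and 38.3 and 39.6 CPM in Erastin, with no overlap. The difference was 0.36 (SE 0.0968, 95% interval 0.15 to 0.57, adjusted p = 0.00960; without Erastin replicate 2, adjusted p = 0.0615).

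SELENOT (chr3:150602875-150630445, plus strand, TGA at chr3:150622392-150622394) encodes a thioredoxin-like oxidoreductase of the ER membrane. It stood at 135 and 152 CPM in control and 172 and 173 CPM in Erastin. The Erastin libraries were close together and above both controls, which lay farther apart. The difference was 0.27 (SE 0.0739, 95% interval 0.10 to 0.43, adjusted p = 0.0111). It did not pass without control replicate 1 (0.18, adjusted p = 0.0508), without Erastin replicate 1 (adjusted p = 0.0610) or without Erastin replicate 2 (adjusted p = 0.0700). SELENOW (chr19:47778572-47784686, plus strand, TGA at chr19:47780732-47780734), a small cytosolic redox protein known for its abundance in muscle and brain, moved the other way. It stood at 18.5 and 17.8 CPM in control and 13.6 and 14.1 CPM in Erastin, with no overlap. The difference was -0.39 (SE 0.124, 95% interval -0.67 to -0.12, adjusted p = 0.0214). DESeq2 gave an adjusted p of 0.0720, and without control replicate 1, Erastin replicate 1 or Erastin replicate 2 the edgeR values were 0.0645, 0.108 and 0.0708.

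SELENOK and SELENOS, the pair of ER membrane proteins with a selenocysteine near the C-terminus, both take part in the degradation of misfolded ER proteins. SELENOK (chr3:53884410-53891988, minus strand, TGA at chr3:53885831-53885833) stood at 40.2 and 39.2 CPM in control and 31.1 and 32.2 CPM in Erastin. The Erastin libraries were lower by more than the spread within either group. The difference was -0.33 (SE 0.0938, 95% interval -0.53 to -0.12, adjusted p = 0.0131), and without Erastin replicate 1 the adjusted p was 0.0873. SELENOS (chr15:101270817-101277500, minus strand, TGA at chr15:101272777-101272779) stood at 54.8 and 54.3 CPM in control and 59.0 and 56.3 CPM in Erastin. Both Erastin libraries were slightly higher, and the difference of 0.08 did not pass (SE 0.0783, adjusted p = 0.444). Its 95% interval, -0.09 to 0.25, leaves room for a small change in either direction.

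SELENON (chr1:25800176-25818224, plus strand) encodes an ER membrane glycoprotein that acts on calcium handling and whose mutations cause congenital muscle disease. Its TGA codons lie at chr1:25802093-25802095 and chr1:25812789-25812791. It had the most counts of the 10 genes in control, at 250 and 216 CPM, and fell to 160 and 168 CPM in Erastin. The controls differed from each other more than the Erastin libraries did, but both were higher. The difference was -0.51 (SE 0.0786, 95% interval -0.68 to -0.33, adjusted p = 2.40e-04), so that it fell by 29.5%. Without SELENON the summed level of the other members was 457 and 478 CPM in control and 588 and 574 CPM in Erastin. Since SELENON fell, leaving it out necessarily moves the sum toward a rise, and no other member was left out for comparison.

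SELENOP (chr5:42799880-42887392, minus strand, the first TGA at chr5:42808177-42808179) encodes the secreted protein that carries selenium between organs, made chiefly by liver. It had few counts in U87MG, 59 and 46 counts in control and 58 and 42 counts in Erastin. The groups overlapped fully. The difference was -0.06 (SE 0.372, adjusted p = 0.914). The 95% interval from -0.87 to 0.76 does not exclude a fall or a rise of a size up to these limits. Its exons share 1452 bases, 25.5% of their length, with CCDC152 on the opposite strand, and since the counting did not use strand, reads there had been left out of both genes. Of its MANE Select transcript, 1554 of 2056 bases (75.6%) lie in exons of other genes, so most of the main transcript went uncounted and its level is understated. CCDC152 itself had 190 and 209 counts in control and 262 and 298 in Erastin, a difference of 0.50 with an adjusted p of 0.0345. That call was lost by DESeq2 (adjusted p = 0.108), without control replicate 1 (0.0963), without the low-count filter (0.0502), without Erastin replicate 1 (0.0724) and without Erastin replicate 2 (0.159).

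Some other members share exon bases with further genes. In the MANE Select transcripts this touched SELENOH (20.5% of its bases) and SELENON (15.3%), and it was 0 for the 7 members besides these and SELENOP. On merged exons, SELENOT shares 61 bases with SERP1 on the opposite strand (1.48% of its exon bases), SELENOH 207 bases with the same-strand gene ENSG00000254732 (2 to 6 counts) and 41 bases with BTBD18 (3 to 7 counts). SELENON shares 286 bases with the opposite-strand lncRNA ENSG00000228172, which had 5 and 2 counts in control and 18 and 15 in Erastin, and 378 bases with ENSG00000255054, which had 0 counts. Of 7 annotated pseudogenes of members, only SELENOTP1 had counts, between 8 and 14 per library, beside 4125 to 5445 for SELENOT.

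Levels of different genes can be compared only per length, and the order depended on the length used. In control cells, on the length of the MANE Select transcript, SELENON was highest at 54.0 CPM per kilobase, followed by SELENOS at 44.8, SELENOM at 43.8 and SELENOT at 41.7, then SELENOH at 30.5, SELENOK at 26.5, SEPHS2 at 25.8, SECISBP2 at 24.5 and SELENOW at 24.0, with SELENOP last at 0.829. SELENOS, SELENOM and SELENOT lay within a few units of each other, as did the 4 genes from SELENOK to SELENOW. In Erastin cells SELENOM came first at 56.1 and SELENOT next at 50.2 CPM per kilobase, while SECISBP2 stood at 38.7 and SELENON, in the next place, at 38. On the merged exon lengths of the deposited table SELENON was again first in control, at 52.7, but SELENOT was then next at 34.7 and SELENOM was lower, at 9.53, since merged exons count every annotated variant (3187 bases for SELENOM against 694 in its MANE transcript). SELENOP was last on either length in both groups. It was also last when the CPM of the whole gene was divided by only the 502 MANE bases outside other genes. That gave 3.84 and 2.95 CPM per kilobase in control and 3.86 and 2.66 in Erastin. Reads were not restricted to those bases, so such values can be too high. Divided in the same way by unshared MANE bases, SELENOH stood at 38.6 and 38.2 and SELENON at 68.4 and 59.2 CPM per kilobase in control.

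The other selenoproteins give the setting for these changes. Of 16 listed, 11 were tested: 6 rose (TXNRD1, GPX3, GPX1, TXNRD2, SELENOI and GPX4), 2 fell (SELENOO and MSRB1) and 3 did not pass (DIO2, TXNRD3 and SELENOF). By the same criterion 23.2% of all tested genes rose and 23.7% fell. Some of the listed genes were named after their values were seen. The median change of the 11 was 0.63, against 0.17 for the 10 members. TXNRD1, the cytosolic thioredoxin reductase, went from 349 and 333 CPM to 1396 and 1402 CPM, a difference of 2.04 (SE 0.0645, adjusted p = 7.56e-10). GPX3, a secreted glutathione peroxidase, went from 1.57 and 0.740 CPM to 4.28 and 5.00 CPM, a difference of 2.00 (SE 0.354, adjusted p = 6.23e-04). TXNRD1 and GPX3 were the listed selenoproteins past the thresholds of the study, as 2 of 11 tested, beside 15.6% of all tested genes. DIO2, a deiodinase that activates thyroid hormone, stood at 1.01 ± 0.241 and 2.02 ± 0.345 CPM, with a log2 fold change just under 1 and an adjusted p of 0.0527. It passed both thresholds, making the count 3, with library totals (1.05, adjusted p = 0.0415), with read pairs (1.02, adjusted p = 0.0380) and without control replicate 1 (1.26, adjusted p = 0.0458).

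GPX4 stood at 230 and 215 CPM in control and 287 and 257 CPM in Erastin. The groups did not overlap, and the difference was 0.29 (SE 0.0738, 95% interval 0.13 to 0.45, adjusted p = 0.00684), in the range of the members; without Erastin replicate 1 it was 0.21 with an adjusted p of 0.129. Taking members and the others together, 20 selenoprotein genes were tested, of which 10 rose, 5 fell and 5 did not pass. Among all tested genes, 23.2% rose and 23.7% fell by this criterion. SELENOV and GPX6 had 0 counts in every library, and DIO1, DIO3 and GPX2 had at most 14.

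**Figure D4:**
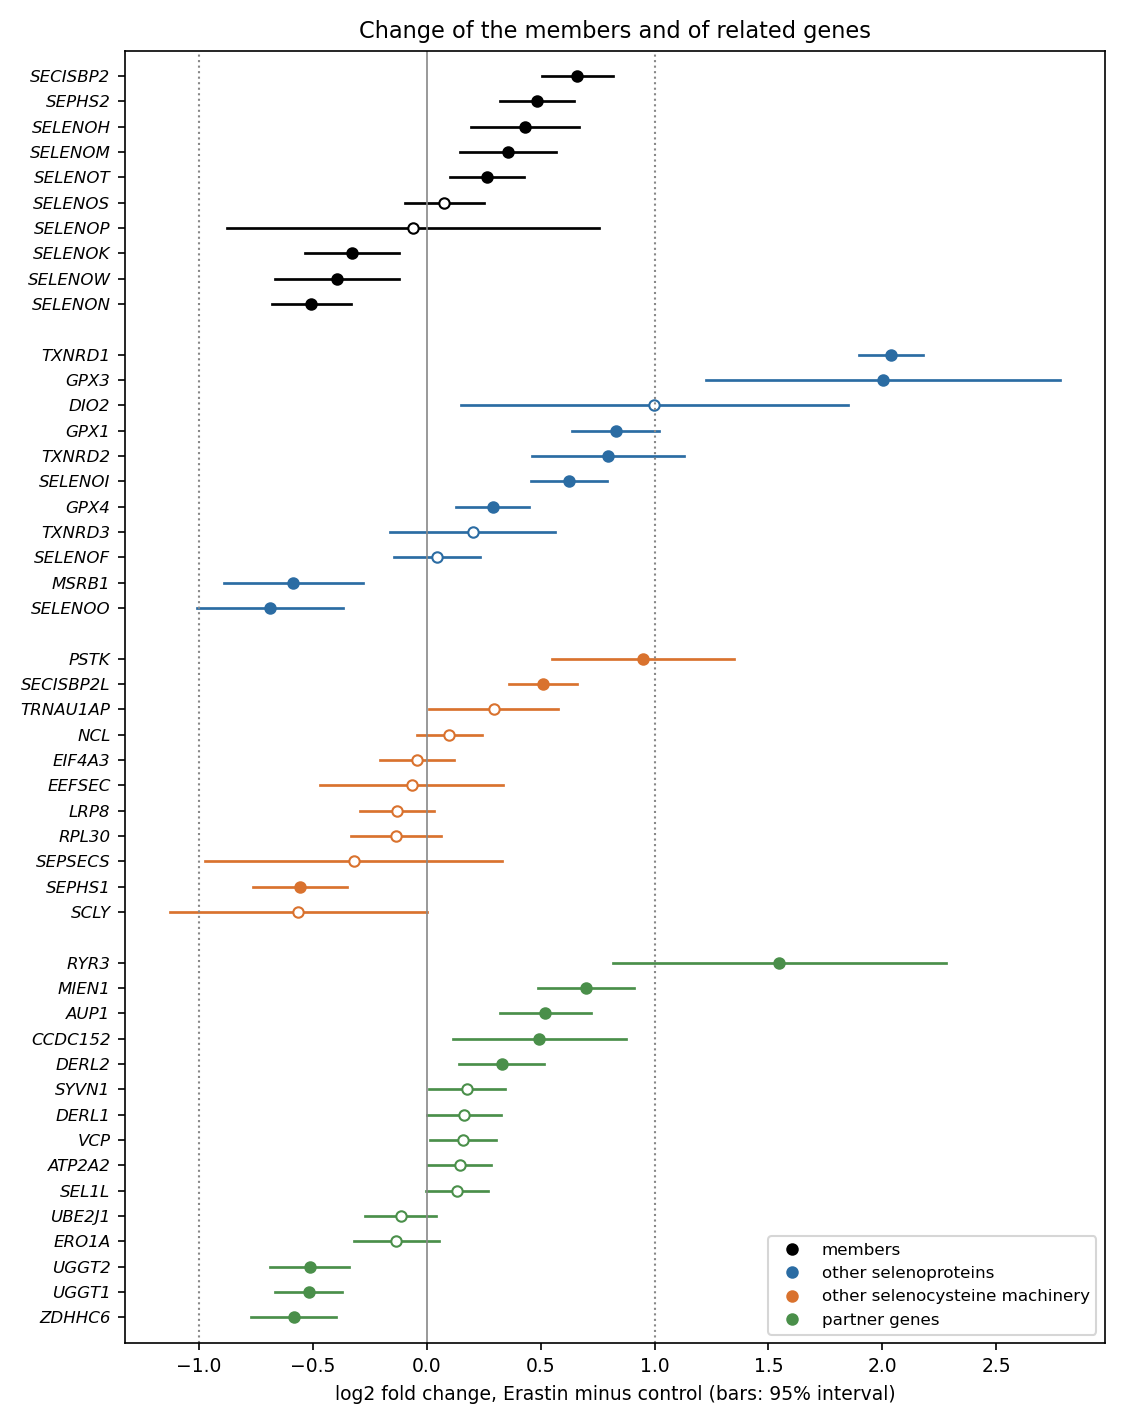
Log2 fold change (Erastin minus control, edgeR) of the 10 members (black), other selenoproteins (blue), other genes of the selenocysteine pathway (orange) and partner genes (green), with 95% intervals; filled points have an adjusted p under 0.05 and dotted lines mark 1 and -1. All members lie between -0.51 and 0.66, while TXNRD1 at 2.04, GPX3 at 2.00 and RYR3 at 1.55 lie beyond 1.

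A list of 17 partner genes was also examined. It held genes linked to selenoproteins by function or fold, not all of them to a member, or with exons that overlap those of a member. Of the 17, 15 were tested: 5 rose, 3 fell and 7 did not pass, beside 23.2% of all tested genes upward and 23.7% downward. Their median change was 0.16. ZDHHC6, the palmitoyltransferase that acts with SELENOK, fell together with it, from 62.7 and 69.7 CPM to 43.0 and 45.4 CPM, a difference of -0.58 (SE 0.0856, adjusted p = 1.54e-04). Among the genes of ER-associated degradation that work with SELENOS and SELENOK, AUP1 (0.52, adjusted p = 5.50e-04) and DERL2 (0.33, adjusted p = 0.00750) rose, whereas DERL1, VCP, SYVN1, SEL1L and UBE2J1 had values between -0.11 and 0.18 and did not pass. With library totals in place of TMM, DERL1, VCP, SYVN1 and SEL1L passed upward (0.18 to 0.23, adjusted p 0.0156 to 0.0353), and the list had 10 higher and 3 lower; without control replicate 2 it had 7 higher and 3 lower. UGGT1 (-0.52, adjusted p = 5.95e-05) and UGGT2 (-0.51, adjusted p = 2.26e-04), the glucosyltransferases that check the folding of ER glycoproteins, fell. MIEN1, a relative of SELENOW in fold, rose from 26.7 ± 1.45 to 43.4 ± 0.495 CPM (0.70, adjusted p = 9.75e-05) while SELENOW fell.

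Among the calcium-handling genes linked to SELENON, RYR3, a calcium release channel of the ER, was the only partner past the thresholds of the study, at 0.948 and 1.48 CPM in control and 3.91 and 3.21 CPM in Erastin. The difference was 1.55 (SE 0.334, adjusted p = 0.00244) on 29 to 117 counts per library. ATP2A2, which encodes the ER calcium pump, stood at 380 and 374 CPM in control and at 426 and 408 CPM in Erastin and did not pass (0.14, adjusted p = 0.0790; with library totals 0.19, adjusted p = 0.0203). RYR1 had at most 9 counts. Several of these genes were named after their values were seen.

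The position of the TGA in the transcript was set beside the changes. An mRNA in which UGA is read as a stop upstream of an exon junction can be a substrate of nonsense-mediated decay, and the usual landmark is 50 bases before the last junction. The first TGA lay farther upstream than that in 6 members: SELENON (1221 bases; 216 for its second TGA), SELENOT (470), SELENOP (357), SELENOH (267), SELENOW (243) and SELENOM (135). Of these, 3 rose (SELENOT, SELENOH and SELENOM), 2 fell (SELENON and SELENOW) and SELENOP did not pass. In SELENOK the TGA was 5 bases before the junction and the gene fell. In SELENOS it lay behind the junction (a distance of -80 bases), and the gene did not pass. Over the 25 selenoprotein genes with the members included, 15 had the TGA more than 50 bases upstream, of which 7 rose, 2 fell, 2 did not pass and 4 were not tested; of the 8 with a junction nearer or earlier, 2 rose, 3 fell and 3 did not pass. These are descriptions of few genes, with no test, beside 23.2% of all tested genes upward and 23.7% downward.

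The base after the TGA, which is known to affect how well it is read through, differed among the members. A G followed the first TGA in SELENOT and SEPHS2, which rose, in SELENOW and SELENOK, which fell, and in SELENOS, which did not pass. A C followed it in SELENOH and SELENOM, which both rose, and a T in SELENON, which fell, and SELENOP, which did not pass; the later TGA of SELENON was followed by G, and those of SELENOP by T, C, A or G. Over all 25 selenoprotein genes, G followed the first TGA in 13: 7 rose, 2 fell, 2 did not pass and 2 were not tested. Of 6 with C, 3 rose, 0 fell, 1 did not pass and 2 were not tested. Of 3 with T, 0 rose, 2 fell and 1 did not pass. Of 3 with A, 0 rose, 1 fell, 1 did not pass and 1 was not tested. SELENON counts under T by a TGA that is part of 1 of its 4 annotated coding transcripts. The classes are small, and again no test was made. Of the 4 members with a cysteine codon ahead, 3 rose and SELENOW fell. Over all selenoprotein genes, 6 had such a codon: 3 rose, 2 fell (SELENOW and SELENOO) and 1 was not tested. Of the 19 without it, 7 rose, 3 fell, 5 did not pass and 4 were not tested.

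Promoters of the members were searched for 4 motifs as a description. RefSeq windows (GRCh38.p14, 250 bases before to 50 after the start) matched 9 of the 10 genes, and SELENOM had none. Only the first listed window of each member was searched, so any other starts of these genes were not covered. The shares over all promoters count every window. On both strands, the antioxidant response element core TGACNNNGC occurred in 3 of the 9, beside 13.3% of 35116 promoters, and those 3 were SELENOP, SELENOK and SELENON, none of which rose. These sites are shown with 10 flanking bases on the gene's strand, the match in capitals.
SELENOP (chr5:42811983-42811991, reverse match): tgctctgcttGCAAGGTCActgcaagaat
SELENOK (chr3:53891968-53891976): gtcgcagatgTGACGATGCaaaaacgccc
SELENON (chr1:25800068-25800076): ccggtgtagcTGACCCCGCcccgggctct
The metal response element core TGCGCNC occurred in SELENOS and SELENOH, 2 of the 9, beside 20% of all promoters. The ATF4 element core TGATGNAA and the ER stress response element occurred in 0 of the 9, beside 3.62% and 0.0769% of all promoters. A match is only a run of letters in this window and says nothing of binding.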

How the data were processed

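Total RNA of U87MG cells, 2 control and 2 Erastin libraries grouped by their labels, was examined. The authors deposited raw read counts per gene; the file header names featureCounts 2.0.3 with the Ensembl release 90 annotation, on GRCh38, while the submitters' processing notes list HISAT2 2.1.0, featureCounts 2.0.4 and DESeq2 1.18.1. The counting was unstranded, counted reads and not pairs, and left out reads that matched several genes or places, which lowers genes with close copies. The deposited columns were tested for the decimals of estimated counts; 0 values were not whole, and rounding changed none. No normalization had been applied.

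In R 4.3.3, edgeR 4.0.16 was used (filterByExpr with a minimum count of 10, TMM factors 0.971 to 1.02, quasi-likelihood test, 16751 of 58302 genes tested, biological coefficient of variation 10.3%). A standard error is the size of the log2 fold change over the square root of F, and 95% intervals from the t distribution. P-values are two-sided. The procedure was tested on simulated counts for this comparison over 16751 genes. There, 200 genes were changed upward or downward by a single fold size, larger than the change of any member. Of these, 177 were recovered, with 5 false calls. The simulation gives no recovery rate for changes as small as those of the members.

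The members and gene lists were chosen with earlier results of these data known. The genes named are the 10 members, the genes of each list past the thresholds or with the 3 largest changes, GPX4, TXNRD1, SEPHS1, SECISBP2L, and genes that overlap members; others are said to be named after their values were seen. CPM per kilobase divides CPM by merged exon length or, chosen after seeing the data, by MANE transcript length, whole or outside exons of other genes. The same results were recomputed with DESeq2 1.42.0, with library totals or RLE size factors, 2 other filters, a replicate block, read pairs, thinning, protein-coding genes only, glmTreat and each library left out.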

Additional observations from a re-analysis of the deposited data

How the results depend on the processing

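The number of members past the thresholds of the study was 0 under all 14 alternatives. The number of members with an adjusted p under 0.05 was 8, and stayed at 7 or 8 under the 9 alternatives that kept all libraries; with each library left out in turn it ranged from 4 (without Erastin replicate 1) to 8. Leaving out a library leaves a lone sample that is assumed to vary like the other group. SECISBP2, SEPHS2 and SELENON kept their direction and their call in all 13 alternatives with an adjusted p, and SELENOS stayed uncalled with the same sign. With a replicate block 8 members again passed, and 2607 genes passed the thresholds in place of 2610; deviations of same-numbered libraries correlated at 0.0203 across genes, so the numbers are not shown to pair the libraries. The block changed no other count of listed genes past the thresholds. Under glmTreat, which tests against a log2 fold change of 1, the count fell to 1125 for all genes and to 0 for the partner genes, because the test itself is stricter. The 4 genes that changed sign had log2 fold changes near 0: SELENOP ranged from -0.35 to 0.19 with each library left out, SELENOF from -0.048 to 0.14 (-0.045 without control replicate 1), EEFSEC from -0.25 to 0.14 and EIF4A3 from -0.10 to 0.014, and EIF4A3 also reached 0.0098 with library totals; the cause was not tested. DIO2 passed an adjusted p of 0.05 in 5 of 13 alternatives, with values from 0.0344 to 0.217 over all 13. Library totals moved the median of all genes to 0.05 and the partner genes with an adjusted p under 0.05 from 5 higher and 3 lower to 10 higher and 3 lower. Low counts limit SELENOP, whose interval spans most of a unit either way.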
